A study of Mus musculus with 12 samples.

Results

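The bone morphogenetic protein (BMP) pathway and its *Id* target genes are described here in mouse embryonic stem cells (mESC) after knockdown of the splicing factor gene *Srrm2*. The 10 genes, of 42450 in the count table, are the 4 *Id* genes *Id1*, *Id2*, *Id3* and *Id4*, the inhibitory Smads *Smad6* and *Smad7*, the ligand *Bmp4*, the receptor *Bmpr1a*, and the signal mediators *Smad1* and *Smad5*. They were found in the table by gene symbol. The set was selected on values measured in these same libraries, among them those of *Id3* at both times, so the values of the 10 genes are given as a description, without p-values. All 10 passed the filter on low counts, and the lowest estimated count of any of them in any library was 213.

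The cells are E14tg2a.4, a wild-type male mESC line that self-renews in the presence of the cytokine LIF. The siRNA, at 50 nM, targeted *Srrm2* (Srrm2-KD) or, as control, firefly luciferase (Gl2-KD), which mouse cells lack, and polyA+ RNA was collected 24 h or 72 h later. Cells of the 72 h groups were transfected again 24 h after the first transfection. The line was routinely grown in a medium with fetal calf serum and LIF. Before collection all cells were kept in a serum-free medium (ESGRO Complete Clonal Grade) with LIF. The 72 h groups thus differ from the 24 h groups in time since transfection and in the number of transfections. They may also differ in time in that medium, and so in time without serum, which the sources used here do not give by group. These differences cannot be told apart. Each of the 4 groups (Gl2-KD at 24 h, Srrm2-KD at 24 h, Gl2-KD at 72 h, Srrm2-KD at 72 h) holds 3 libraries, 1 from each of 3 experiments, which gives 12 libraries. All come from 1 cell line, and the sources used here do not say which *Srrm2* siRNA duplex entered the libraries.

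BMP ligands bind pairs of type I and type II receptors at the cell surface, and the type I receptor phosphorylates Smad1 and Smad5, which join Smad4 and enter the nucleus. There they act on target genes, of which the *Id* genes are the best known, together with *Smad6* and *Smad7*, whose products act back on the receptors. Id proteins lack a DNA-binding domain and hold E proteins, which pair with differentiation factors, away from DNA. In mESC cultured with LIF, BMP4 or serum keeps *Id* genes expressed and holds back neural differentiation.

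Within the pathway, *Id3* and *Bmp4* were lower at 72 h than at 24 h with either siRNA, in every experiment. *Id3* in Gl2-KD at 72 h was at 18.9% of its 24 h level, and *Bmp4* at 46.6%. *Id1* and *Id2* were lower at 72 h in experiments 2 and 3 and differed little between the times in experiment 1. At 24 h no gene of the set differed by more than 0.22 (log2) between Srrm2-KD and Gl2-KD. At 72 h *Id3* was 1.75-fold higher in Srrm2-KD, *Smad6* was at 58.4% and *Id4* at 65.5% of the Gl2-KD level, and the other genes, *Id1* apart, lay within 0.12 (log2) of no difference.

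The libraries are deep, with 73933196 to 153343831 estimated counts each. *Srrm2* itself was lower after its siRNA in all 3 experiments at both times, by 1.22 ± 0.14 (log2, SE) at 24 h and by 1.16 ± 0.14 at 72 h. By edgeR's quasi-likelihood test, adjusted over 19410 genes, these had adjusted p = 0.0663 and 0.0991. At 24 h *Srrm2* differed by -0.82, -1.69 and -1.17 in experiments 1, 2 and 3. The groups overlapped at both times. Srrm2-KD of experiment 1 (517 CPM at 24 h, 461 CPM at 72 h) lay above Gl2-KD of experiment 3 (449 and 442 CPM). Libraries of experiment 1 stood apart from those of experiments 2 and 3. On the first principal component of log2 expression, which held 42.0% of the variance, they lay between -92.7 and -78.8, and the 8 others between 7.95 and 84.1. The experiment is therefore a term in every comparison, and results that rest on one experiment are also given without it. All 9 mESC markers were expressed, with a summed level of 5125 to 7577 CPM (counts per unit of TMM-scaled library size) in a library, whereas 4 of 6 primitive endoderm markers and 5 of 7 fibroblast markers were below 1 CPM in every library. The libraries hold RNA of whole cultures, so fewer cells that express a gene and less of its RNA per cell cannot be told apart.

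**Figure D1:**
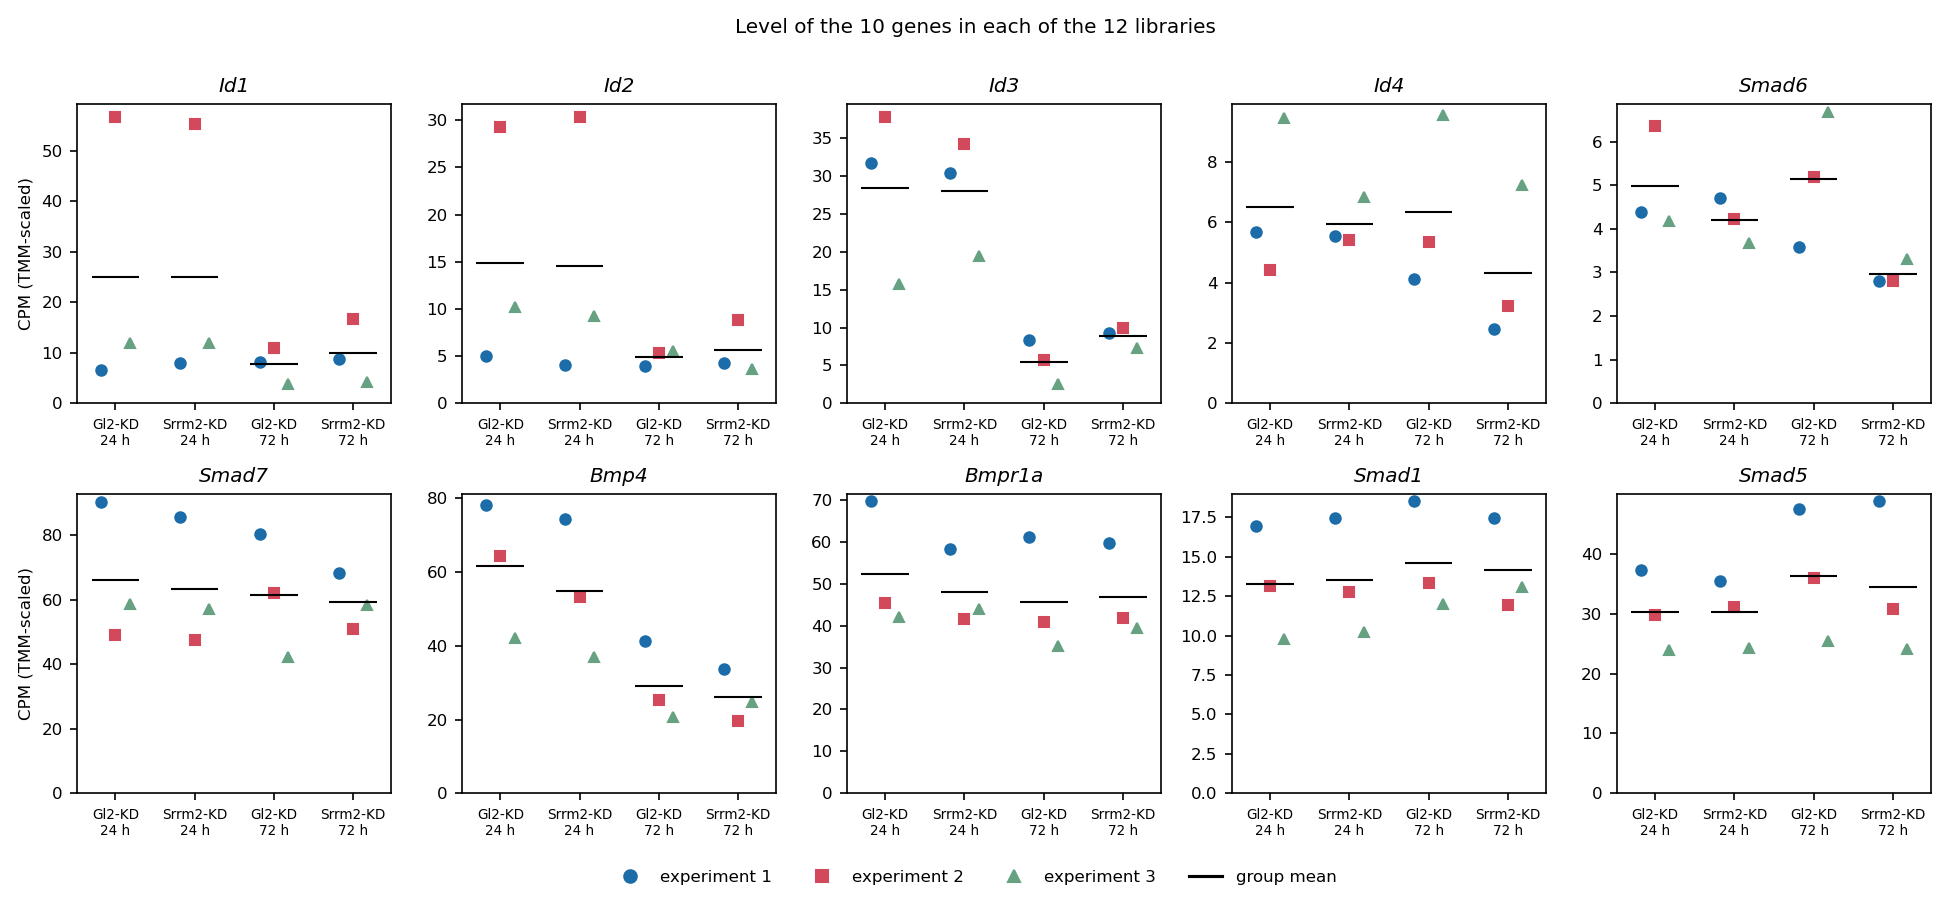
Level of each of the 10 genes in each library, in CPM scaled by TMM factors (vertical axis, from 0), by siRNA and time (horizontal axis). Symbols and colours mark the experiment and black lines the mean of 3 libraries. *Id3* and *Bmp4* lie lower in both 72 h groups, *Id1* and *Id2* are highest in experiment 2 at 24 h, and experiment 1 is the highest in all 4 groups for *Smad7*, *Bmp4*, *Bmpr1a*, *Smad1* and *Smad5*.

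Levels of different genes were compared as CPM per kilobase of annotated exon. In Gl2-KD at 24 h, *Bmp4* had the highest level (27.4 ± 8.08, SD, n = 3), followed by *Id1* (21.6 ± 23.7), *Id3* (15.9 ± 6.35) and *Smad7* (14.6 ± 4.77). *Bmpr1a* (8.25 ± 2.37), *Id2* (6.08 ± 5.24) and *Smad5* (4.09 ± 0.909) were intermediate, and *Smad1* (2.12 ± 0.574), *Id4* (1.69 ± 0.681) and *Smad6* (1.55 ± 0.378) were lowest. Among neighbours in this order, the 3 libraries overlapped in every case except *Smad5* and *Smad1*. At 72 h in Gl2-KD, *Smad7* (13.6 ± 4.21) and *Bmp4* (13.0 ± 4.77) led and overlapped, and *Id3* (3.07 ± 1.63) stood in the sixth place, between *Smad5* and *Smad1*. In Srrm2-KD at 72 h *Id3* was at 4.95 ± 0.759 and *Smad6*, again the lowest, at 0.927 ± 0.0895. The mRNA of the 2 inhibitory Smads thus differed in level, *Smad7* lying above *Smad6* in every library.

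The promoter windows of 4 genes are shown because these genes carry the main differences in level, *Id2*, *Id3* and *Bmp4* between the times and *Smad6* between the siRNAs at 72 h. Each window is 300 bases from RefSeq (GRCm38.p6), from 250 bases before to 50 after the annotated start, written 5′ to 3′ on the strand of the gene. Capitals mark 2 motifs of the Smad proteins, searched on both strands, the GC-rich site GGCGCC and the Smad-binding element GTCT (AGAC on the other strand), which do not overlap each other.
Id2 (chr12:25096043-25096342, minus strand): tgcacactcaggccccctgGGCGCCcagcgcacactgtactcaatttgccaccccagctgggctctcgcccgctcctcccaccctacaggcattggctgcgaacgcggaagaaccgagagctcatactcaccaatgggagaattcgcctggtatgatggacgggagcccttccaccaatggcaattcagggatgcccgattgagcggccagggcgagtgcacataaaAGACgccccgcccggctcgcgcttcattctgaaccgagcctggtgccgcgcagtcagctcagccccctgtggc
Id3 (chr4:136143572-136143871, plus strand): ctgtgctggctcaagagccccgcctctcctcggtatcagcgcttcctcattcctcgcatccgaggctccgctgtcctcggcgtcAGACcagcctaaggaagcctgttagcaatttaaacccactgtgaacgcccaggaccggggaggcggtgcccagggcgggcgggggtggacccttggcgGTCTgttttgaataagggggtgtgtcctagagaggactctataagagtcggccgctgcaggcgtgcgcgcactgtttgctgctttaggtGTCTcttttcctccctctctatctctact
Smad6 (chr9:64022010-64022309, minus strand): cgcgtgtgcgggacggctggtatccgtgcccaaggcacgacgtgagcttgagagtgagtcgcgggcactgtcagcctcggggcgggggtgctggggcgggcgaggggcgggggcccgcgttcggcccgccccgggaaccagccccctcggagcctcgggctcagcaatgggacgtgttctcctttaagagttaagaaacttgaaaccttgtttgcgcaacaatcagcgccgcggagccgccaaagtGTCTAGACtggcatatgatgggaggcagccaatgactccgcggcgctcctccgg
Bmp4 (chr14:46390620-46390919, minus strand): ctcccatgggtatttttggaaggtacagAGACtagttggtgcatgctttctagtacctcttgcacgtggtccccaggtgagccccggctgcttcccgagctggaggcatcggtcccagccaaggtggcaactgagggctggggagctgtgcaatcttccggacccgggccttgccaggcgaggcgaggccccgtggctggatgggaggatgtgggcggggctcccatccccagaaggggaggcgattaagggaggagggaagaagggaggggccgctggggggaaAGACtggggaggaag

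The GC-rich site was found 1 time in the *Id2* window and in none of the other 3, and 11.9% of the 32851 RefSeq promoter windows hold it. The short Smad-binding element was found 1 time in *Id2*, 3 times in *Id3*, 2 times in *Smad6*, where both copies are adjacent, and 2 times in *Bmp4*. It is held by 88.0% of all windows, with a median of 2 matches, so its presence sets none of these promoters apart. The composite of GGCGCC followed after any 5 bases by GTCT was in 0 of the 10 windows read for 8 genes of the set (not *Id1* and *Smad7*), and in 24 windows of all genes. The E-box CANNTG, which E proteins and their partners bind, was found 1 time in *Id2*, 0 times in *Id3*, 1 time in *Smad6* and 3 times in *Bmp4*, and 72.3% of all windows hold it. *Id4* has 1 GC-rich site and no Smad-binding element in its window. The guanine and cytosine share was 60.0% for *Id3*, 63.3% for *Id2*, 64.0% for *Bmp4*, 66.3% for *Smad6* and 73.3% for *Id4*. These matches describe letters in a window and not binding, and whether they bear on the differences in level was not tested.

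*Bmp4* (ENSMUSG00000021835, chr14:46383520-46390669, GRCm38) encodes a secreted ligand of the pathway. Its level in Gl2-KD at 24 h was 78.3, 64.4 and 42.3 CPM in experiments 1, 2 and 3. At 72 h these values were 41.2, 25.4 and 20.7 CPM. With the *Srrm2* siRNA it was 74.4, 53.3 and 36.9 CPM at 24 h and 33.8, 19.5 and 24.85 CPM at 72 h. The 24 h and 72 h groups did not overlap with either siRNA, and within each group experiment 1 was the highest. The log2 difference of 72 h from 24 h was -1.10 ± 0.16 (SE) in Gl2-KD and -1.04 ± 0.16 in Srrm2-KD. Over the settings tried and the libraries left out it ranged from -1.20 to -0.96 and from -1.29 to -0.87. Between the siRNAs, *Bmp4* had a log2 difference of -0.18 ± 0.16 at 24 h, lower in Srrm2-KD each time, and of -0.12 ± 0.16 at 72 h, lower in 2 of the 3 experiments, with overlapping groups at both times.

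*Bmpr1a*, which encodes a type I receptor of BMP ligands, ranged from 35.05 to 69.65 CPM over the 12 libraries. Its differences were small next to those of its ligand. For Srrm2-KD minus Gl2-KD they were -0.10 ± 0.10 (log2, SE) at the earlier time and 0.05 ± 0.10 at the later. Between the times they were -0.20 ± 0.10 in Gl2-KD, lower in 3 of 3 experiments with overlapping groups, and -0.05 ± 0.10 in Srrm2-KD. *Smad1* (9.79 to 18.5 CPM) and *Smad5* (23.9 to 48.8 CPM), which carry the signal from the receptor to the nucleus, were level in the same way. In Gl2-KD, *Smad1* was higher at 72 h by 0.14 ± 0.13 and *Smad5* by 0.24 ± 0.11, each in 3 of 3 experiments and with overlapping groups. Between the siRNAs the 2 genes differed by -0.09 to 0.02 at either time.

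*Smad6* (ENSMUSG00000036867, chr9:63953076-64022059, GRCm38) encodes an inhibitory Smad that acts mainly on BMP signals. In experiments 1, 2 and 3 it was at 4.38, 6.37 and 4.17 CPM in Gl2-KD at 24 h and at 4.71, 4.24 and 3.68 CPM in Srrm2-KD at 24 h. At 72 h it was at 3.58, 5.18 and 6.67 CPM in Gl2-KD and at 2.80, 2.81 and 3.30 CPM in Srrm2-KD. All 3 Srrm2-KD libraries at 72 h lay below all 3 Gl2-KD libraries of that time, and they varied less among themselves. The log2 difference was -0.78 ± 0.25 (SE), with -0.35, -0.88 and -1.01 in the 3 experiments. It ranged from -1.0 to -0.50 over the settings tried and the libraries left out. At 24 h it was -0.22 ± 0.24, lower in 2 of 3 experiments. *Smad6* in Srrm2-KD was also lower at 72 h than at 24 h without overlap (-0.51 ± 0.25, lower in 3 of 3 experiments), and in Gl2-KD it was not (0.04 ± 0.25, lower in 2 of 3).

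*Smad7*, whose product inhibits both BMP and TGF-beta receptors, ranged from 42.3 to 90.3 CPM and did not share this pattern. Its differences between siRNAs were -0.06 ± 0.16 (log2, SE) at 24 h and -0.03 ± 0.16 at 72 h. Between the times the difference was -0.08 ± 0.16 with the control siRNA and -0.06 ± 0.16 in Srrm2-KD. The groups overlapped in each of these 4 comparisons, and no comparison but that at 24 h had the same direction in all experiments.

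*Id3* (ENSMUSG00000007872, chr4:136143497-136145755, GRCm38) had the widest difference between the times. In experiments 1, 2 and 3 its level in Gl2-KD was 31.8, 37.75 and 15.75 CPM at 24 h and 8.32, 5.69 and 2.50 CPM at 72 h. After the *Srrm2* siRNA these were 30.3, 34.3 and 19.4 CPM at 24 h and 9.34, 9.91 and 7.32 CPM at 72 h. Every 72 h library lay below every 24 h library, whichever the siRNA. The log2 difference of 72 h from 24 h was -2.40 ± 0.23 (SE) in Gl2-KD, with -1.93, -2.73 and -2.65 in the 3 experiments. In Srrm2-KD it was -1.62 ± 0.22, with -1.70, -1.79 and -1.40. These values ranged from -2.74 to -2.20 and from -1.88 to -1.50 over the settings tried and the libraries left out.

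At 24 h *Id3* did not separate the siRNAs (0.03 ± 0.21, log2, SE, higher in 1 of 3 experiments). At 72 h it was higher in Srrm2-KD in all 3 experiments, by 0.17, 0.80 and 1.55, and the fitted difference was 0.81 ± 0.22. In that comparison 41.9% of all genes tested had the same direction in all 3 experiments. The groups overlapped, since *Id3* in Gl2-KD of experiment 1 lay above *Id3* in Srrm2-KD of experiment 3. The widest of the 3 differences came from experiment 3, in which Gl2-KD at 72 h had the lowest *Id3* of all libraries. Without experiment 3 the difference was 0.46, without experiment 2 it was 0.81, and without experiment 1 it was 1.18. The 72 h difference exceeded that at 24 h by 0.78 ± 0.31, in the same direction in 3 of 3 experiments. The comparison of siRNAs at 72 h and that of times in Gl2-KD share the 3 Gl2-KD libraries of 72 h.

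*Id1* (ENSMUSG00000042745, chr2:152736251-152737410, GRCm38) varied most between experiments. In Gl2-KD it was at 6.58, 56.7 and 11.9 CPM at 24 h in experiments 1, 2 and 3, and at 8.23, 11.03 and 3.84 CPM at 72 h. After *Srrm2* knockdown it was at 7.91, 55.3 and 11.98 CPM at 24 h and at 8.78, 16.8 and 4.26 CPM at 72 h. The 2 siRNAs agreed closely within an experiment at 24 h, while experiment 2 lay far above the other two. *Id2* (ENSMUSG00000020644, chr12:25093799-25097140, GRCm38) followed the same order at 24 h, with 5.04, 29.3 and 10.2 CPM in Gl2-KD and 4.09, 30.4 and 9.30 CPM in Srrm2-KD. At 72 h *Id2* was at 3.91, 5.37 and 5.50 CPM in Gl2-KD and at 4.27, 8.88 and 3.68 CPM in Srrm2-KD.

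From 24 h to 72 h in Gl2-KD, the log2 difference of *Id1* was 0.32, -2.36 and -1.63 in experiments 1, 2 and 3, and that of *Id2* was -0.37, -2.44 and -0.88. In Srrm2-KD *Id1* differed by 0.15, -1.72 and -1.49, and *Id2* by 0.06, -1.77 and -1.33. Thus both genes were lower at 72 h in experiments 2 and 3 with either siRNA, and in experiment 1, where they were already low at 24 h, they moved by at most 0.37. The fitted difference in Gl2-KD was -1.25 ± 0.45 (SE) for *Id1* and -1.17 ± 0.40 for *Id2*, and the groups overlapped. In Srrm2-KD it was -1.04 ± 0.44 and -1.05 ± 0.40. The value for *Id1* in Gl2-KD was -2.00 without experiment 1, -0.69 without experiment 2 and -1.03 without experiment 3, and that for *Id2* was -1.58, -0.66 and -1.35. *Id3* in the same comparison was -2.70, -2.26 and -2.32. Between the siRNAs, the fitted difference of neither *Id1* nor *Id2* exceeded its standard error at either time. At 72 h it was 0.24 ± 0.43 for *Id1* and 0.04 ± 0.39 for *Id2*. The fit holds 1 term per experiment for both times, so these standard errors also take in how the time difference varied between experiments. In experiments 1, 2 and 3, *Id1* differed between siRNAs by 0.26, -0.04 and 0.004 at 24 h. At 72 h its differences were 0.09, 0.60 and 0.15, higher in Srrm2-KD each time. For *Id2* they were -0.30, 0.05 and -0.13 at 24 h and 0.13, 0.72 and -0.58 at 72 h.

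**Figure D2:**
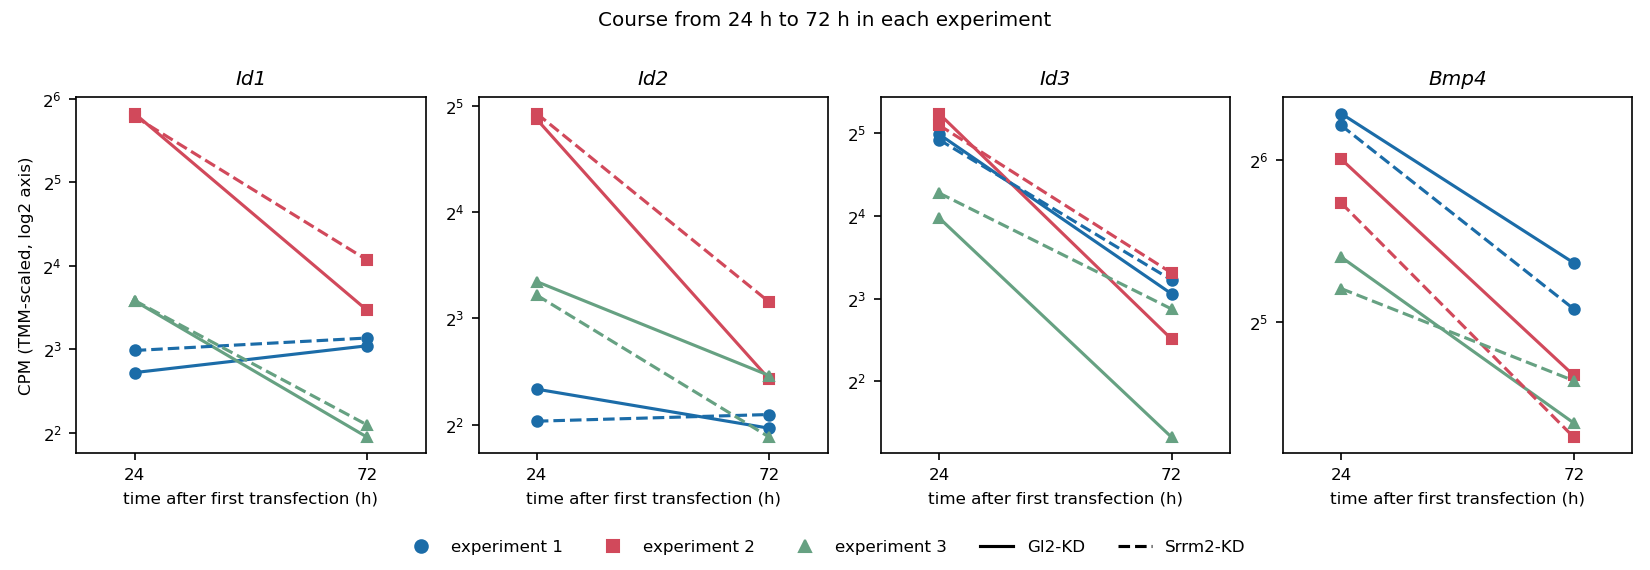
Level of *Id1*, *Id2*, *Id3* and *Bmp4* at 24 h and 72 h (horizontal axis, time after the first transfection) in CPM on a log2 axis, with 1 line for each experiment (colour and symbol) and siRNA (solid, Gl2-KD; dashed, Srrm2-KD). *Id3* and *Bmp4* decline along all 6 lines, whereas *Id1* declines along the 4 lines of experiments 2 and 3 and not along the 2 of experiment 1.

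*Id4* (ENSMUSG00000021379, chr13:48261228-48266026, GRCm38) went another way than the other *Id* genes. In experiments 1, 2 and 3 it was at 5.68, 4.42 and 9.46 CPM in Gl2-KD at 24 h and at 4.13, 5.34 and 9.56 CPM at 72 h, a log2 difference of -0.06 ± 0.23 (SE). In Srrm2-KD it was at 5.55, 5.42 and 6.85 CPM at 24 h and at 2.45, 3.23 and 7.23 CPM at 72 h (-0.62 ± 0.23, lower in 2 of 3 experiments). At 72 h it was lower in Srrm2-KD than in Gl2-KD in all 3 experiments, by -0.75, -0.72 and -0.40, with a fitted difference of -0.61 ± 0.23. The groups overlapped because experiment 3 was high with both siRNAs. Antisense transcripts annotated over *Id4* held 21 counts in all, against 8001 for *Id4*.

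**Figure D3:**
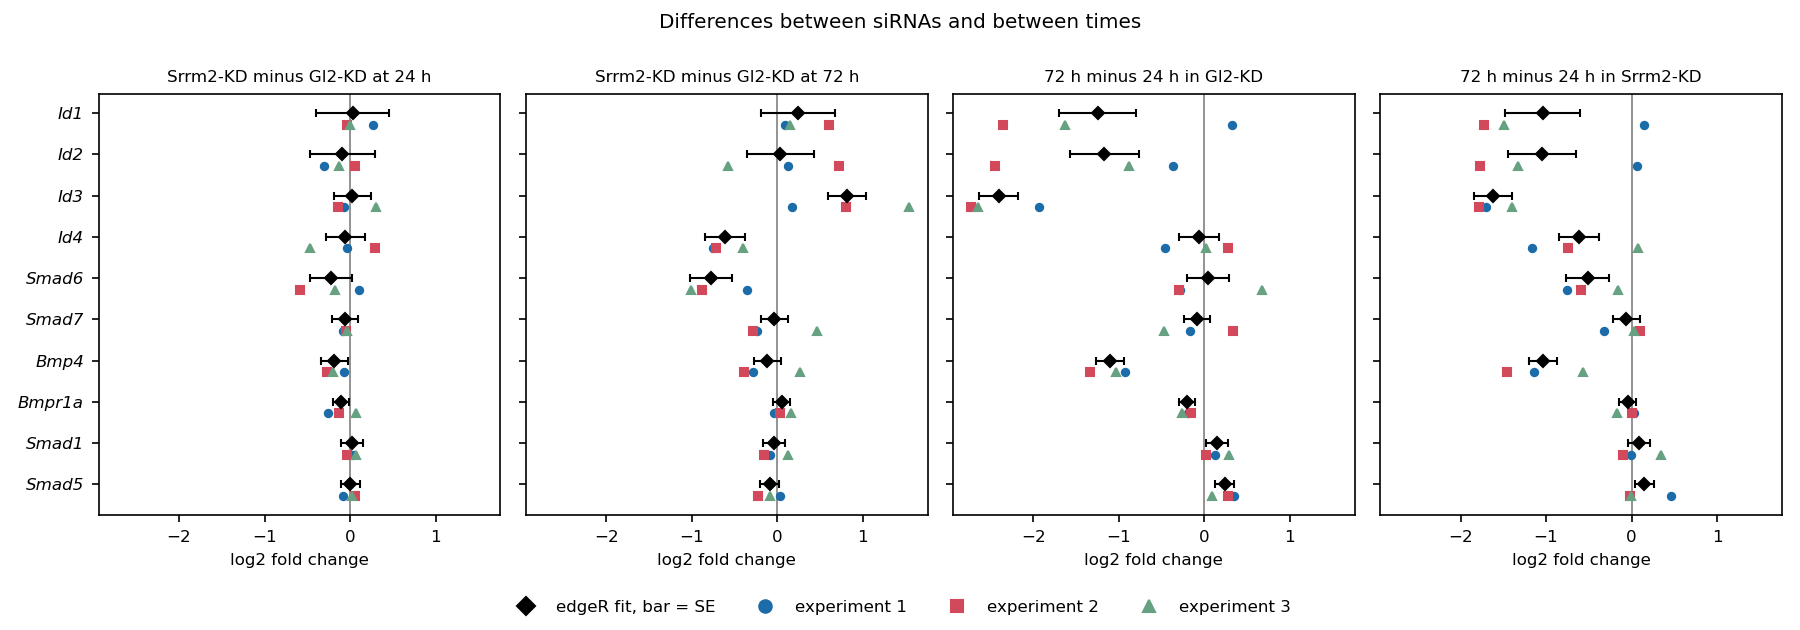
Log2 differences of the 10 genes (horizontal axis) in the 4 comparisons between groups of 3 libraries. Black diamonds with bars are the edgeR estimate and its SE, and coloured symbols are the differences within each experiment. At 24 h all estimates lie between -0.22 and 0.03, and at 72 h *Id3* (0.81), *Id4* (-0.61) and *Smad6* (-0.78) lie away from 0. For *Id1* and *Id2* the experiments are spread far apart in the comparisons of times.

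At an adjusted p below 0.05 in the edgeR fit, 0 of the 10 genes were called between the siRNAs at 24 h, where 0% of the 19410 genes tested were called, and 0 of 10 at 72 h, where the share over all genes was also 0%. For the difference between the 2 knockdown comparisons it was 0 of 10, again beside 0%. An unadjusted p below 0.05 was reached by 508, 2498 and 319 genes in these 3 comparisons. DESeq2 called 25, 542 and 2 genes, with *Id3* the only gene of the set among them, at 72 h. The limma-voom fit called 1, 2 and 0 genes. With libraries blocked by experiment within each time, edgeR called 724 genes at 72 h and none of the 10. Between the times in Gl2-KD, 2 of 10 (*Id3* and *Bmp4*, both lower) were called beside 1.45% of all genes, 0.747% higher and 0.706% lower. In Srrm2-KD the same 2 were called, both lower, beside 0.551% of all genes, 0.191% higher and 0.361% lower. These counts repeat what was known when the genes were chosen.

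Groups of 3 libraries that did not overlap were found for 0 of the 10 genes between siRNAs at 24 h, where 3.44% of all genes tested had such groups, and for 1 (*Smad6*) at 72 h, beside 6.66%. Between the times they were found for 2 in Gl2-KD (*Id3* and *Bmp4*), beside 7.27%, and for 3 in Srrm2-KD (*Id3*, *Bmp4* and *Smad6*), beside 7.48%. Between siRNAs, 2 of the 10 genes at 24 h and 4 at 72 h had the same direction in all 3 experiments. The shares over all genes tested were 32.8% and 41.9%. Between the times, 6 of the 10 in Gl2-KD and 3 in Srrm2-KD did, beside 36.6% and 32.9% of all genes. Over the 10 genes the median log2 difference was -0.05 at 24 h and -0.03 at 72 h between siRNAs, and -0.14 and -0.57 between times in Gl2-KD and Srrm2-KD, against 0.01, -0.02, 0.02 and 0.00 over all genes tested.

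Markers of other cell types moved with some of these values. The summed level of 5 neural progenitor markers was 130 to 161 CPM in Gl2-KD and 167 to 233 CPM in Srrm2-KD at 72 h, the comparison in which *Id3*, *Id4* and *Smad6* differed. *Otx2* carried most of that sum, with means of 91.4 and 161 CPM, and *Sox1* and *Nes* lay on the other side, with log2 differences of -1.12 and -0.27. The trophoblast sum was 86.2 to 168 CPM at 24 h and 111 to 223 CPM at 72 h in Gl2-KD, and 85.8 to 111 and 82.2 to 142 CPM in Srrm2-KD. Of its 6 markers, *Cdx2* and *Elf5* stayed below 1 CPM in every library. Between siRNAs at 72 h, *Krt8* had a log2 difference of -1.10 ± 0.26 (SE), *Tfap2c* of -0.53 ± 0.12 and *Krt18* of -0.47 ± 0.26, each lower in Srrm2-KD in every experiment and *Tfap2c* without overlap, with edgeR adjusted p = 0.151, 0.140 and 0.481. None of the marker genes tested was called in any comparison, and their part in the values of the *Id* and *Smad* genes was not tested.

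The experiments themselves differed in level for most of the 10 genes. Experiment 1 was the highest of the 3 in all 4 groups for *Smad7*, *Bmp4*, *Bmpr1a*, *Smad1* and *Smad5*. Its log2 difference from experiments 2 and 3 was 0.60 ± 0.11 (SE), 0.69 ± 0.12, 0.59 ± 0.07, 0.55 ± 0.09 and 0.59 ± 0.08 for these 5 genes. *Srrm2* differed in the same direction, by 1.20 ± 0.10. Such an order was not particular to the set. Outside it, *Smad4*, *Bmpr2*, *Nanog* and *Klf4* were also highest in experiment 1 in all 4 groups, and *Pou5f1*, *Fkbp1a* and *Tcf3* were lowest in all 4. The share over all genes was not counted. The other 5 genes of the set were neither highest nor lowest in experiment 1 in all 4 groups. For *Id1* (-0.72 ± 0.35) experiment 2 stood apart, with means over the 4 groups of 7.87, 34.9 and 8.004 CPM in experiments 1, 2 and 3, and experiment 1 was the lowest in 2 of 4 groups. *Id2* (-1.17 ± 0.31) had means of 4.33, 18.5 and 7.16 CPM and was lowest in experiment 1 in 3 of 4 groups. *Id3* (0.47 ± 0.16), *Id4* (-0.52 ± 0.18) and *Smad6* (-0.20 ± 0.19) were neither highest nor lowest in experiment 1 throughout, and *Id4* had its highest mean, 8.27 CPM, in experiment 3.

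The likeness of other genes to *Id3* and *Id1* was taken as the correlation of log2 CPM over the 12 libraries with each of 19409 genes, as a description. These libraries share experiments and times, and the same shifts enter every gene. Closest to *Id3* were *H60b* (Pearson r = 0.966), *Foxd3* (0.961), the pseudogene *Gm11218* (0.955), *Gid8* (0.953) and ENSMUSG00000095908 (0.951), which has no symbol in the annotation used. *Foxd3*, a transcription factor gene of pluripotent cells, had means of 38.0 CPM in Gl2-KD at 24 h and 15.3 CPM at 72 h, and 37.3 and 19.7 CPM in Srrm2-KD. *Gid8*, which encodes a subunit of a ubiquitin ligase complex, went from 127.5 to 98.1 CPM and from 134 to 109 CPM. *H60b*, *Gm11218* and the unnamed gene each averaged less than 1 CPM over the 12 libraries. Among the set, *Bmp4* came nearest to *Id3* (0.862, place 110), *Id1* was at 0.627 and *Id4* at -0.14. With group means removed, *Id4* stood at -0.82 to *Id3*.

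Closest to *Id1* were *Prpf31* (0.975), *Rrp7a* (0.969), *Trp53rkb* (0.968), *Maea* (0.963) and *Cog8* (0.960). *Prpf31* encodes a splicing factor of the U4/U6 small nuclear ribonucleoprotein and *Maea*, like *Gid8*, a subunit of the same ubiquitin ligase complex. Their levels moved far less than that of *Id1*, with group means of 138 to 186 CPM for *Prpf31* and 108 to 118 CPM for *Maea*, against 7.70 to 25.1 CPM for *Id1*. *Id2* was at 0.918 (place 79), *Id3* at 0.627 and *Id4* at -0.30.

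A list of 75 other genes of the pathway, of which 60 passed the filter, was read in the same fit. Between siRNAs 0 of 60 were called at 24 h and 0 at 72 h, with 1 and 7 at an unadjusted p below 0.05. These are 1.67% and 11.7% of the list, beside 2.62% and 12.9% of all genes tested. Between times 1 was called in Gl2-KD (*Bmp7*, higher) and 1 in Srrm2-KD (*Fstl1*, lower), with 10 at an unadjusted p below 0.05 in each, which is 16.7% of the list beside 16.8% and 16.3% of all genes tested. For the difference between the knockdown comparisons 0 were called and 2 had an unadjusted p below 0.05, 3.33% of the list beside 1.64% of all genes. The median log2 difference of the list was -0.04, -0.12, -0.07, -0.11 and -0.10 in these 5 comparisons, against 0.01, -0.02, 0.02, 0.00 and -0.02 over all genes.

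*Bmp7*, a ligand of the same family as *Bmp4*, moved opposite to it. In Gl2-KD it was at 1.83, 1.79 and 4.78 CPM at 24 h and at 3.76, 5.67 and 13.5 CPM at 72 h in experiments 1, 2 and 3. It rose by 1.42 ± 0.27 on the log2 scale (SE, higher in 3 of 3 experiments, edgeR adjusted p = 0.0321), while the groups overlapped. In Srrm2-KD it was 1.16 ± 0.27 higher at 72 h, also in 3 of 3 experiments, with adjusted p = 0.0879 by edgeR. The call in Gl2-KD was lost without any of the 3 Gl2-KD libraries of 24 h, or without that of experiment 2 or 3 at 72 h. *Fstl1*, which encodes a secreted follistatin-like protein, was at 103, 75.0 and 56.4 CPM at 24 h and at 52.3, 42.4 and 40.0 CPM at 72 h in Srrm2-KD. The level fell by 0.77 (log2; SE 0.12, lower in 3 of 3 experiments without overlap, edgeR adjusted p = 0.0400). In Gl2-KD its difference was -0.53 ± 0.12, with adjusted p = 0.0616 by edgeR. The call in Srrm2-KD was kept in 3 of the 12 fits that each left out 1 library, those without Gl2-KD of experiment 1 or 3 at 72 h and without Srrm2-KD of experiment 3 at 24 h.

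Among the ligands, 6 of 14 passed the filter and *Gdf3* was the most abundant (102 CPM on average), with log2 differences of 0.09 ± 0.10 (SE) and 0.20 ± 0.10 between siRNAs at 24 h and 72 h. *Bmp2*, another ligand of the type I receptors, did not pass the filter, with 60 counts in all libraries together. All 11 receptors and co-receptors passed, and *Eng*, a co-receptor, led with 26.8 CPM and differed by 0.64 ± 0.21 between the times in Gl2-KD (edgeR adjusted p = 0.158). *Smad4*, the partner of Smad1 and Smad5, was at 65.5 CPM, with log2 differences of -0.06 to -0.01 in the 4 comparisons of groups. Of the intracellular inhibitors 10 of 10 passed, led by *Fkbp1a* (231 CPM), which encodes a binding protein of type I receptors, and of the secreted antagonists and modulators 14 of 19. The 3 E protein genes were expressed at all times, *Tcf3* at 177 CPM on average, and differed by -0.16 to 0.29 between siRNAs.

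Between siRNAs the pathway genes with the smallest p were values short of a call. At 72 h *Zeb2* was 0.83 ± 0.22 (log2, SE) higher in Srrm2-KD, *Tbx3* 0.74 lower (-0.74 ± 0.21) and *Ski* 0.35 lower (-0.35 ± 0.10), each in 3 of 3 experiments, with edgeR adjusted p = 0.173, 0.201 and 0.203. *Zeb2* and *Tbx3* encode transcription factors and *Ski* a corepressor of Smads. DESeq2 called *Zeb2* and *Tbx3*, and edgeR with libraries blocked by experiment within each time called *Tbx3* and *Fstl1*. At 24 h *Smad9*, another Smad that BMP receptors phosphorylate, was at 0.263 to 0.385 CPM in Gl2-KD and at 0.136 to 0.201 CPM in Srrm2-KD (-0.999 ± 0.41). *Zeb2* (0.45 ± 0.22) and *Tcf12* (0.29 ± 0.15) came next, all 3 with adjusted p = 1 by edgeR. For the difference between the knockdown comparisons, *Smad9* had 1.32 ± 0.58 and *Dlx3* 1.95 ± 0.89, with adjusted p = 1 by edgeR. *Dlx3* was barely detected, at 0.197 CPM on average and 251 counts in all libraries together.

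**Figure D4:**
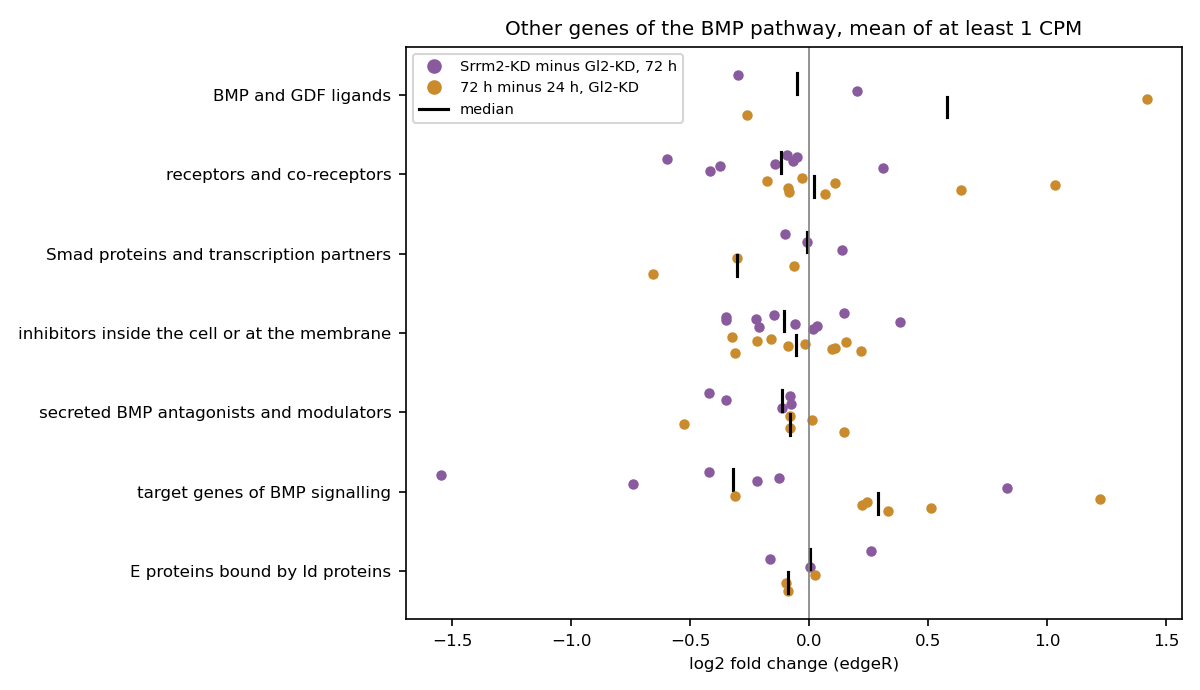
Log2 fold change (horizontal axis, edgeR) of the 37 other pathway genes with a mean of at least 1 CPM, by group of the list, for the siRNAs at 72 h (Srrm2-KD minus Gl2-KD) and for 72 h minus 24 h in Gl2-KD. Each circle is 1 gene and black bars are the medians of the genes plotted in each group. Most genes lie near 0, *Bmp7* (1.42) is the called gene between the times, and *Zeb2* (0.83) and *Tbx3* (-0.74), neither of them called, lie to either side between the siRNAs.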

How the data were processed

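PolyA+ RNA of 12 cultures was sequenced as stranded 100-bp paired-end reads. The authors pseudo-aligned the reads to the GENCODE M24 transcriptome with Kallisto 0.46.1 and deposited estimated counts by gene for every library, not normalized for library size. Symbols and positions came from GENCODE M21 (GRCm38), matched for 42156 of 42450 identifiers.

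Counts were rounded and fitted with edgeR 4.0.16 in R 4.3.3 (filterByExpr with minimum count 10 and total 15, TMM, glmQLFit with legacy=TRUE). The fit of all 12 libraries had terms for the 4 groups and for the experiment, in place of the RNA processing day of the study's model, which the labels do not give. P-values were Benjamini-Hochberg adjusted over 19410 genes. They rest on the spread between libraries that is left after the group and experiment terms, with 6 residual degrees of freedom. CPM used the TMM-scaled library sizes, and log2 CPM a prior count of 2. Libraries of the same experiment number deviated together after removal of group means (18 pairs, correlations across genes of 0.281 to 0.747, against -0.628 to 0.231 for 36 other pairs). The fit was tested on simulated data. For the siRNAs at 72 h it recovered 37 of 100 genes changed by 1 (log2) and 73 of 100 changed by 2. For the times in Gl2-KD it recovered 37 and 70 of 100. In each comparison 4 unchanged genes were called. A gene that was not called can therefore still differ. More genes were called in the simulation than between the siRNAs in the real data, which makes the adjusted threshold less strict. Its shares therefore do not give the recovery in the real siRNA comparisons.

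The members of the set, the gene lists and the tests were chosen with earlier results of these data known. Named pathway genes are those called in a comparison or, where none was, the 3 with the smallest p, besides the most abundant of a group; *Bmp2* was named after its values were seen, and some genes are not reported here. Other settings were DESeq2 1.42.0, limma-voom (limma 3.58.1), no filter, no block, blocks of experiment within time, and omission of each library or experiment.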

Additional observations from a re-analysis of the deposited data

Results flagged for a closer look

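*Id1* differed little between the times in experiment 1 and was lower at 72 h in experiments 2 and 3. From 24 h to 72 h its log2 CPM differed by 0.32 in Gl2-KD and 0.15 in Srrm2-KD of experiment 1, and by -2.36 to -1.49 in the 4 pairs of the other experiments. The means of the 2 sets of pairs lay 2.03 apart. This difference between experiments was not tested. *Id1* was also low at 24 h in experiment 1.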

How the results depend on the processing

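With 3 libraries a group, calls near the threshold moved with the fit. In Gl2-KD between times, 2 genes of the set and 1 pathway gene were called. Without the replicate block or without experiment 2 both were 0, as was the count over all genes tested, without experiment 3 the pathway count was 0, and leaving out 1 library gave 0 to 2 and 0 to 2. For the pathway list, DESeq2 called 4, and limma-voom, no filter and leaving out experiment 1 called 2 each. In Srrm2-KD between times, 2 genes of the set and 1 pathway gene were called, 0 and 0 without the replicate block and without experiment 2, 5 pathway genes with DESeq2, and 0 to 2 and 0 to 1 when 1 library was left out. At 72 h between siRNAs, in place of 0, DESeq2 called 1 gene of the set (*Id3*) and 2 pathway genes, and the replicate block of experiment within time called 2 pathway genes. At 24 h and for the difference of the comparisons, both counts were 0 under every setting.

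Without experiment 1, *Id1* was also called between times, at -2.00 in Gl2-KD and -1.61 in Srrm2-KD, and *Bmp4* was not called in Srrm2-KD. *Id3* in Gl2-KD kept its call in 11 of 12 fits without 1 library, the exception being Gl2-KD of experiment 2 at 72 h, and *Bmp4* in 8. In Srrm2-KD they kept it in 5 and 4. Of 980 values of the set's log2 differences under the alternatives, 948 moved by less than the spread between experiments, 32 by more, and no called value changed sign. That spread can be wide: *Id1* between times in Gl2-KD ranged from -2.00 to -0.69 within it. Values not called did change sign, between siRNAs at 24 h in 7 of 20 alternatives for *Smad5* and 6 of 20 for *Id3*. At 72 h those of *Id3*, *Id4* and *Smad6* changed sign in 0 of 20. Leaving out experiment 2 or 3 was chosen after seeing the data.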
